A study of Saccharomyces cerevisiae with 6 samples.

Results

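The introns described here lie in 36 genes for proteins of the small (40S) ribosomal subunit of the budding yeast Saccharomyces cerevisiae. They were taken by systematic gene name from a table of 309 introns of 298 genes. The genes run from RPS0 to RPS30 and leave out RPS9A, RPS9B, RPS14A, RPS14B and RPS22B. Each of the 36 genes has 1 intron in the table, and all 36 passed the read minimum for testing. Most ribosomal protein genes of yeast exist in 2 copies, named A and B. Among the 36 genes, 32 form 16 such pairs with an intron in both copies, and RPS8A, RPS13, RPS25A and RPS29B stand alone.

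The assay was MPE-seq, short for multiplexed primer extension sequencing, in which a pool of primers placed downstream of introns starts cDNA synthesis, and the read tells whether that intron is still present. Wild type cells (WT, strain EJS1) and cells with the genotype prp2-1 (strain EJS7) were compared, with 3 libraries of each, lettered A to C. Cells of both groups grew in YPD at 25 °C and spent 15 minutes at 37 °C before collection, so the WT cells had the same heat shift. Nothing in the labels says that the lettered libraries came from separate cultures, so the p-values measure the spread between these libraries, which may be technical.

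An intron is removed in a pair of reactions on the spliceosome. The 5′ splice site is first joined to the branch point adenosine, which in yeast lies in the motif TACTAAC, and the exons are then joined at the 3′ splice site. Prp2 is an RNA-dependent ATPase that remodels the assembled spliceosome just before the first of these reactions, and prp2-1 is a temperature-sensitive allele of it. Ribosomal protein transcripts are among the most abundant in growing yeast, carry long introns for this species, and make up much of the work of its spliceosomes.

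Intron positions could be read from gaps between coding exons on build R64 for 31 of the 36 genes. The coding regions of RPS8A, RPS25A, RPS26A, RPS26B and RPS29B have no such gap, and their introns are not placed here. The 31 introns were 256 to 551 bases long with a median of 401, against 139 over all 279 placed introns. On the transcript strand, 30 of the 31 held the letters TACTAAC (96.8%), and 230 of all 279 placed introns did (82.4%). The one without it was RPS21A. All 31 ended in AG, as CAG in 15 and TAG in 16. The intron began with GTATGT in 22 (71.0%, against 73.1% of all placed introns), with GTACGT in 6 and with GTATGA in 3. Both copies of RPS19 and of RPS30 are among the 6 with GTACGT. In the 30 introns with TACTAAC, the distance from the branch point adenosine to the end of the intron was 19 to 82 bases, with a median of 39.

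The sequences below run from 10 bases before the branch motif to the last base of the intron, 5′ to 3′ on the transcript strand. They cover 3 of the 4 pairs whose copies differed most in their response (RPS0, RPS18 and RPS30), the RPS27 pair, whose copies differed most in WT, and the RPS21 pair for the variant motif. Capitals mark the branch motif and the last 3 bases of the intron.
RPS18A, chrIV:1360344-1360404, plus strand: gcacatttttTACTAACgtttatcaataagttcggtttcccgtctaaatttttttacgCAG
RPS18B, chrXIII:223381-223436, minus strand: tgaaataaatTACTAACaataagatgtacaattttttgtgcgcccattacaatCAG
RPS30A, chrXII:712726-712780, minus strand: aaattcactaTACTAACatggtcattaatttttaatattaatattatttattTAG
RPS30B, chrXV:678380-678435, minus strand: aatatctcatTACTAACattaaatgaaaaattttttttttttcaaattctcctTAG
RPS0A, chrVII:921078-921119, plus strand: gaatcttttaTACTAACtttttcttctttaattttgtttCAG
RPS0B, chrXII:242636-242680, plus strand: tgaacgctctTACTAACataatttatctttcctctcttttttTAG
RPS27A, chrXI:158918-158966, plus strand: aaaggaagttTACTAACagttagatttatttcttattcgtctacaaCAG
RPS27B, chrVIII:148117-148187, minus strand: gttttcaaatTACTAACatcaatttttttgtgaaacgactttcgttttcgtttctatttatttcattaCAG
RPS21A, chrXI:551966-552002, plus strand: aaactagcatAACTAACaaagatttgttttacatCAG
RPS21B, chrX:156790-156831, minus strand: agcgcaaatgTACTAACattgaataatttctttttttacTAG

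The 6 libraries held 1612685 to 2671271 counted reads. The 36 introns took 28.0% ± 0.125 of them in WT and 32% ± 0.493 in prp2-1 (SD over n = 3 libraries in each group, as throughout). Libraries of 1 group differed from each other by more than counting error, with a chi-square per degree of freedom of 30.6 to 111. The strains also differed outside splicing: HMRA1 intron 1, in a gene of mating type a, had 16583 spliced reads over the WT libraries and 8 over the prp2-1 libraries. In CPM, reads scaled to a common library size, the summed reads of 14 listed mating type and meiosis genes, with 16 introns in the table, were 2747 to 3164 in WT and 232 to 451 in prp2-1. HMRA1 made up most of the WT sum. The summed reads of the other 13 genes went the other way, at 123 to 154 in WT and 231 to 449.9 in prp2-1. Most of that rise lay in REC114, whose unspliced count, added up over each group, climbed from 23 to 1135. Its spliced count went from 9 to 1, a loss of far fewer reads than the unspliced count gained. Whether the rise of the sum lies within splicing or outside it was not tested. Not all of the 13 rose: REC102 and SPO1, with few reads, fell. In single libraries 6 to 13 of the 16 introns had 0 spliced reads. What part these differences have in the results below was not tested. The authors also deposited counts from random draws of 800000 reads per library. The members' share of library reads in those draws was 0.890 (RPS23A) to 1.72 times that in the full table for spliced reads, and 0.415 (RPS0A) to 1.46 (RPS26A) times for unspliced reads. RPS13 had 0 unspliced reads in WT replicate B of the full table but 4 over the 5 draws, so the draws are not a plain subset of the full counts. Every change, difference, adjusted p or count of calls given below for the draws comes from the first draw of each library alone.

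Nearly every intron of the group was spliced less completely in prp2-1, but most of these transcripts still were overwhelmingly spliced. The unspliced percent is the unspliced count over the sum of spliced and unspliced counts. In WT its mean was under 1% in 31 of the 36 introns and under 0.1% in 15 of these, with a median of 0.140% over the 36. In prp2-1 the median was 1.95%, and 33 of the 36 introns stayed under 10% and 10 under 1%. The mean percent in prp2-1 over that in WT had a median of 13.7, and was over 10 in 25 introns. The unspliced to spliced ratio rose in 35 of the 36 introns by edgeR's quasi-likelihood test at a Benjamini-Hochberg (BH) adjusted p under 0.05, where it rose in 93.4% of all 274 tested introns. The share among the 36 is thus close to the background. No member (0) was lower by edgeR, DESeq2 or limma, also 0 at an unadjusted p under 0.05 in each. In 35 of the 36 introns all 3 prp2-1 libraries lay above all 3 WT libraries, and groups did not overlap in 92% of all tested introns. Among the prp2-1 libraries, replicate B was lowest in 31 and replicate C highest in 27 of the 36 introns.

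**Figure D1:**
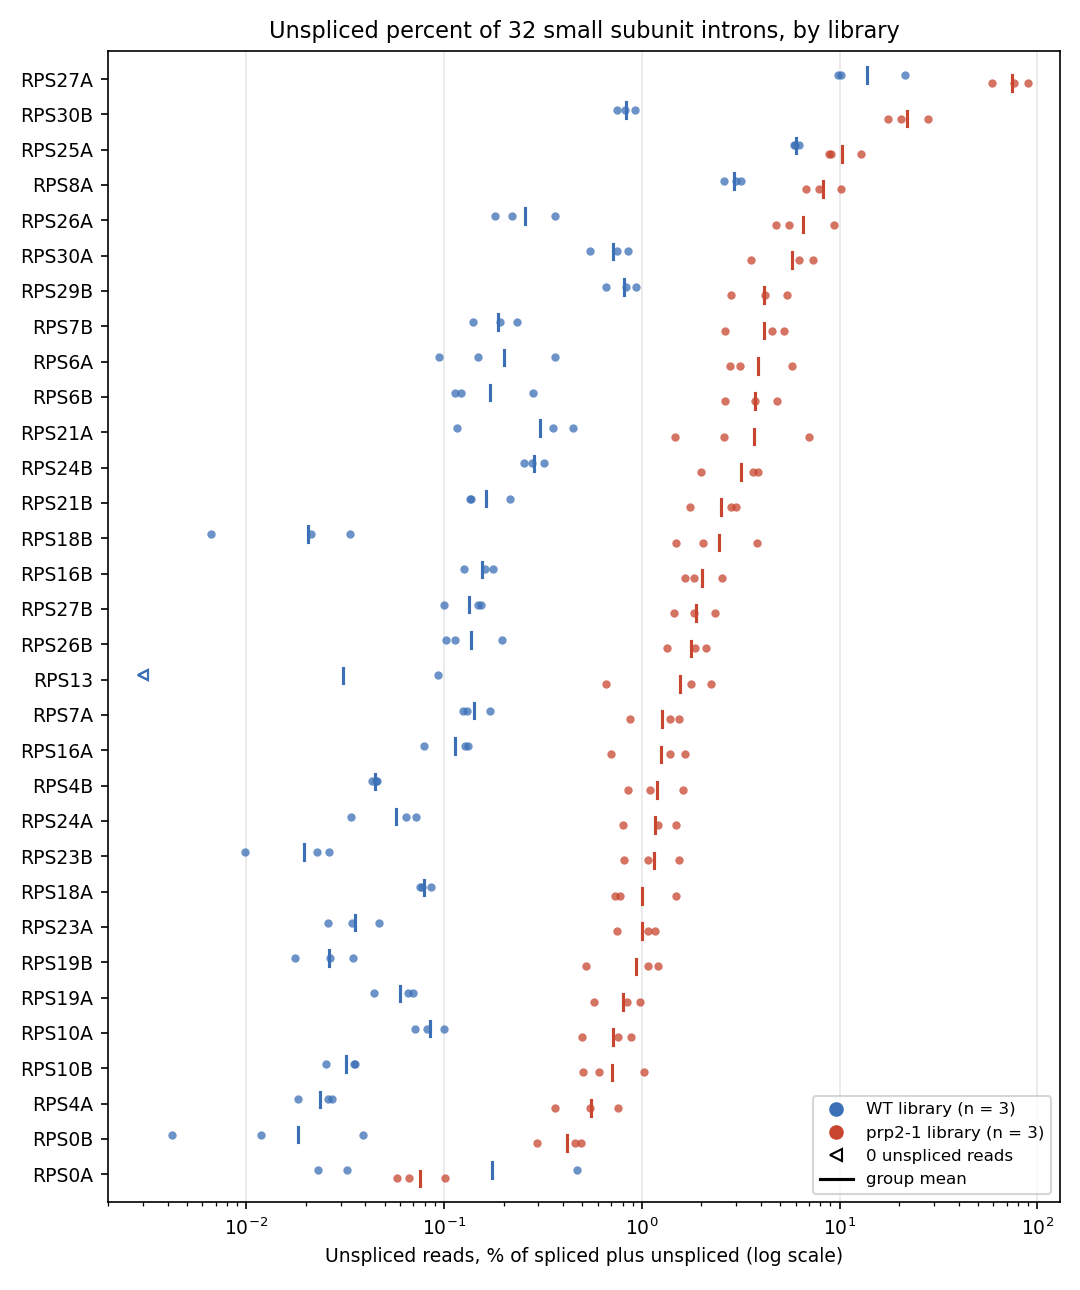
Unspliced percent (log axis) of 32 of the 36 introns in each library, with WT in blue and prp2-1 in red, sorted by the prp2-1 mean; vertical ticks are group means, and the open triangle marks the WT libraries A and B of RPS13, with 0 unspliced reads. The prp2-1 points lie to the right of the WT points in every intron drawn except RPS0A, where the groups overlap.

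Proteins of the head of the subunit are encoded by 12 of the genes, among them RPS10, RPS16, RPS18 and RPS19 in both copies, RPS25A and RPS29B. All 12 introns rose in ratio, where 93.4% of all tested introns rose, with a median log2 change of 3.48. Rps18 contacts the large subunit from the head, and the intron of RPS18B (YML026C, chromosome XIII, 223381 to 223781) changed most of all 36. It had 3, 1 and 6 unspliced reads in WT replicates A, B and C beside 14171, 15022 and 17940 spliced reads. In prp2-1 it had 276, 516 and 703 unspliced reads beside 18343, 24698 and 17659 spliced reads. The 2 groups lay far apart, and the mean percent went from 0.0204% ± 0.0134 to 2.45% ± 1.22, a log2 change in ratio of 6.75 ± 0.522 (SE; adjusted p = 1.41e-11, edgeR). RPS19B (YNL302C, chromosome XIV, 62373 to 62923), whose human counterpart is mutated in Diamond-Blackfan anemia, rose from 0.0265%, 0.0175% and 0.0346% in WT to 1.08%, 0.520% and 1.20%. This was a log2 change of 5.07 ± 0.449 (adjusted p = 1.55e-10, edgeR), and the lowest prp2-1 library was still well above the highest WT library.

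Of the 5 smallest changes of ratio, 3 were in genes of head proteins, as was the largest, in RPS18B. Head genes are 12 of the 36, and a difference between head genes and the others was not tested. RPS25A (YGR027C) encodes a protein used in initiation at internal ribosome entry sites. Its intron was 5.96%, 5.89% and 6.24% unspliced in WT, more than in any other member except RPS27A, and 9.08%, 8.81% and 12.9% in prp2-1. The groups did not overlap, but the log2 change was only 0.81 ± 0.335 (adjusted p = 0.0254, edgeR), and the call was lost without any single WT library (adjusted p = 0.0706 to 0.0857). RPS29B (YDL061C), for a zinc-binding protein, rose from 0.658%, 0.835% and 0.935% to 4.21%, 2.83% and 5.43% (log2 change 2.37 ± 0.351). In both genes the groups were separate, and both introns were above the median member in WT.

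The other 24 genes encode proteins of the body and platform. Their median log2 change was 4.35, and 23 of 24 rose, where 93.4% of all tested introns rose. Rps23 lines the decoding centre and bears on the accuracy of translation. RPS23B (YPR132W, chromosome XVI, 795030 to 795394) had 4, 2 and 6 unspliced reads in WT and 256, 283 and 480 in prp2-1, a rise from 0.0197% ± 0.00864 to 1.15% ± 0.375 (log2 change 5.82 ± 0.474). RPS30B (YOR182C, chromosome XV, 678380 to 678790), whose protein sits near the mRNA entry channel, rose from 0.749%, 0.919% and 0.823% to 20.6%, 17.5% and 27.9% (5.04 ± 0.360). It was 1 of 3 members with a mean above 10% in prp2-1, with RPS25A and RPS27A. In RPS23B and RPS30B the groups were clearly separate.

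RPS27A (YKL156W, chromosome XI, 158616 to 158966), for a zinc-finger protein, stood apart by level. It was 10.2%, 21.6% and 9.79% unspliced in WT and 89.3%, 58.9% and 76.3% in prp2-1, the highest of the members in both groups (log2 change 4.42 ± 0.590). The change was 3.79 without prp2-1 replicate A and 5.03 without prp2-1 replicate B. Its spliced reads were few, 97, 91 and 129 in WT and 26, 53 and 42 in prp2-1, against 6032 to 12307 in its copy RPS27B. Each copy has its own primer, so these counts do not compare the RNA levels of the copies. RPS13 (YDR064W, chromosome IV, 579479 to 580017), a single-copy gene, had 0 unspliced reads beside 675 and 829 spliced reads in WT replicates A and B. This allows a percent of up to 0.444% and 0.362% by 3 counts, for counting error only, and replicate C had 1 unspliced read. In prp2-1 it had 13, 7 and 13, or 1.55% ± 0.811 (log2 change 4.82 ± 0.839). This value rests on 1 unspliced read in WT: it was 6.67 without WT replicate C and 1.94 in the draws (adjusted p = 9.68e-05 and 0.0499, edgeR). RPS8A (YBL072C) rose from 2.98%, 2.61% and 3.18% to 7.89%, 6.75% and 10.2%, a log2 change of 1.56 ± 0.324 (adjusted p = 8.19e-05, edgeR).

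RPS0A (YGR214W, chromosome VII, 920665 to 921119) was the only member not called. Rps0 is needed for maturation of the RNA of the small subunit. The gene had 2, 34 and 2 unspliced reads in WT beside 6167, 7214 and 8701 spliced reads, and 9, 8 and 7 in prp2-1 beside 8864, 13847 and 10547. In WT replicate B its percent (0.469%) was above every prp2-1 library (0.101%, 0.0577% and 0.0663%), while WT replicates A and C (0.0324% and 0.0230%) were below them. The log2 change was -0.95 ± 0.728 (adjusted p = 0.218, edgeR). It was 1.38 without WT replicate B (adjusted p = 0.112), -1.60 without WT replicate C (adjusted p = 0.0387), and 1.58 in the first of the authors' draws (adjusted p = 0.108). Over the 5 draws of WT replicate B, with 2785177 counted reads together, RPS0A had 4 unspliced reads where the full library of 1983661 reads had 34. At 0.0752% ± 0.0231 it was the lowest member in prp2-1, and it was lowest there in the draws too, at 0.0640% over all draws.

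Beside the other introns, the 36 had values near those of the large subunit, and differences between the classes were not tested. The median log2 change was 3.88 for the 36, 3.93 for 59 introns of large subunit genes, 3.16 for the 6 introns of RPS9A, RPS9B, RPS14A, RPS14B and RPS22B, 5.39 for 173 introns outside ribosomal protein genes, and 4.64 over all 274. Called higher were 57 of 59, 5 of 6 and 159 of 173 in the 3 comparison classes. The largest change of the 36, in RPS18B, ranked 50 among the 274. The levels differed more than the changes. In single WT libraries the median unspliced percent was 0.107% to 0.136% for the 36, 0.129% to 0.145% for the large subunit and 9.94% to 10.4% for introns outside ribosomal protein genes. In prp2-1 libraries these were 1.56% to 2.45%, 1.5% to 2.94% and 87.5% to 93.6%. The 6 introns of RPS9A, RPS9B, RPS14A, RPS14B and RPS22B had medians of 1.37% to 1.71% in WT and 10.2% to 14.7% in prp2-1. The ranges of the 36 and of the large subunit introns overlap in both groups, those of the 6 lie above them, and those of the other genes lie above all of these.

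**Figure D2:**
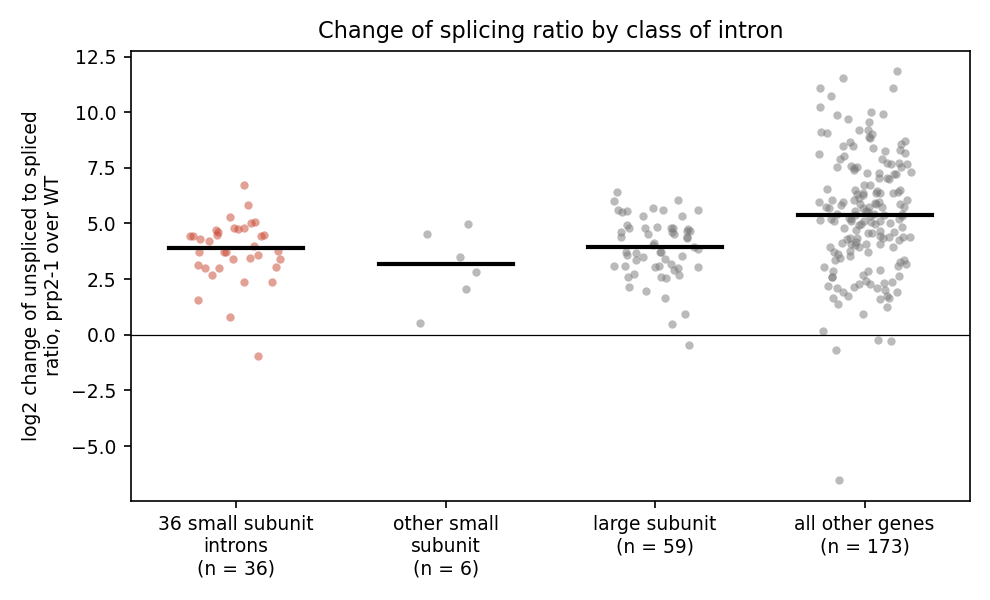
Log2 change in ratio, unspliced over spliced reads, in prp2-1 against WT for each of 274 tested introns, by class; horizontal bars are medians. The 36 small subunit introns center on 3.88, the large subunit introns on 3.93 and the introns outside ribosomal protein genes on 5.39, with a wider spread in the last.

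Among the 36 introns, the level in prp2-1 followed the level in WT (Spearman's rho = 0.82 across introns, which share libraries and are not independent replicates). The log2 change was smaller where the WT percent was higher (rho = -0.59). Both quantities contain the WT count. Intron length had a weak relation with the change over 31 introns (rho = -0.25), and the distance from branch point to the end of the intron had nearly none over 30 (rho = -0.02). By start of the intron, the median log2 change was 4.35 for GTATGT (22 introns, -0.95 to 6.75), 3.86 for GTACGT (6 introns, 3.01 to 5.07) and 4.22 for GTATGA (3 introns, 2.71 to 5.30), with ranges that overlap. The median WT percent was 0.0990% with GTATGT, 0.441% with GTACGT and 0.0982% with GTATGA, and in prp2-1 1.26%, 4.13% and 3.83%. The 5 introns that were not placed ranged from 0.81 (RPS25A) to 4.74 (RPS26A) in log2 change. RPS21A, with AACTAAC in place of TACTAAC, rose from 0.448%, 0.116% and 0.354% to 1.48%, 2.59% and 7.01% (log2 change 3.42 ± 0.617, and 2.74 without prp2-1 replicate C). Its copy RPS21B changed by 3.99 ± 0.387.

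The ratio was then taken apart into unspliced and spliced reads, scaled by the reads of all introns in the library. Unspliced reads rose in 35 of the 36 members (edgeR), where 90.9% of all tested introns rose and 2.19% fell. The median log2 change was 3.78 for the members and 3.02 over all 274. It was higher, at 4.17, in the large subunit introns, where 57 of 59 rose. Among the 5 largest rises were RPS18B (7.05), RPS23B (6.27), RPS19B (5.34) and RPS10B (5.30). No member (0) fell by edgeR or DESeq2, also 0 at an unadjusted p under 0.05, though 1 fell without WT replicate C. Spliced reads of the group changed little. Their median log2 change was 0.05, near the 0.02 of the large subunit introns. It was -0.75 in the 6 introns of RPS9A, RPS9B, RPS14A, RPS14B and RPS22B. Over all 274 introns the median was -0.91, and in introns outside ribosomal protein genes -2.60. The change was under 0.5 in size in 33 of the 36. In 24 of the 35 introns with a higher ratio, spliced reads did not pass the test in either direction. Whatever their ratio, 99 of all 274 introns and 44 of the 59 large subunit introns did not pass it either. In these bulk samples less RNA per cell and fewer cells with the RNA cannot be told apart.

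Spliced reads rose in 9 members and fell in 3, where 6.2% of all tested introns rose and 57.7% fell. RPS10B (YMR230W, chromosome XIII, 732466 to 732875), for a head protein near the mRNA entry site, had 14005, 14452 and 14192 CPM of spliced reads in WT and 23796, 23311 and 25304 in prp2-1. This was the largest rise, 0.80 on the log2 scale (adjusted p = 2.75e-06, edgeR), with no overlap. RPS25A rose by 0.52, RPS7A (YOR096W) by 0.49, and RPS0A by 0.46, with adjusted p of 0.000268 to 0.000794 (edgeR). Among the 3 that fell were RPS27A (60.1, 45.9 and 51.3 to 14.1, 19.8 and 18.5 CPM; log2 change -1.53, adjusted p = 0.00017, edgeR) and RPS7B (-0.40). The directions rest on the scaling. Relative to the 13 introns with over 98% of their WT reads unspliced, the median total of all introns moved by -0.29, the median spliced change of the 36 was -0.22, and spliced reads rose in 1 member and fell in 5.

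**Figure D3:**
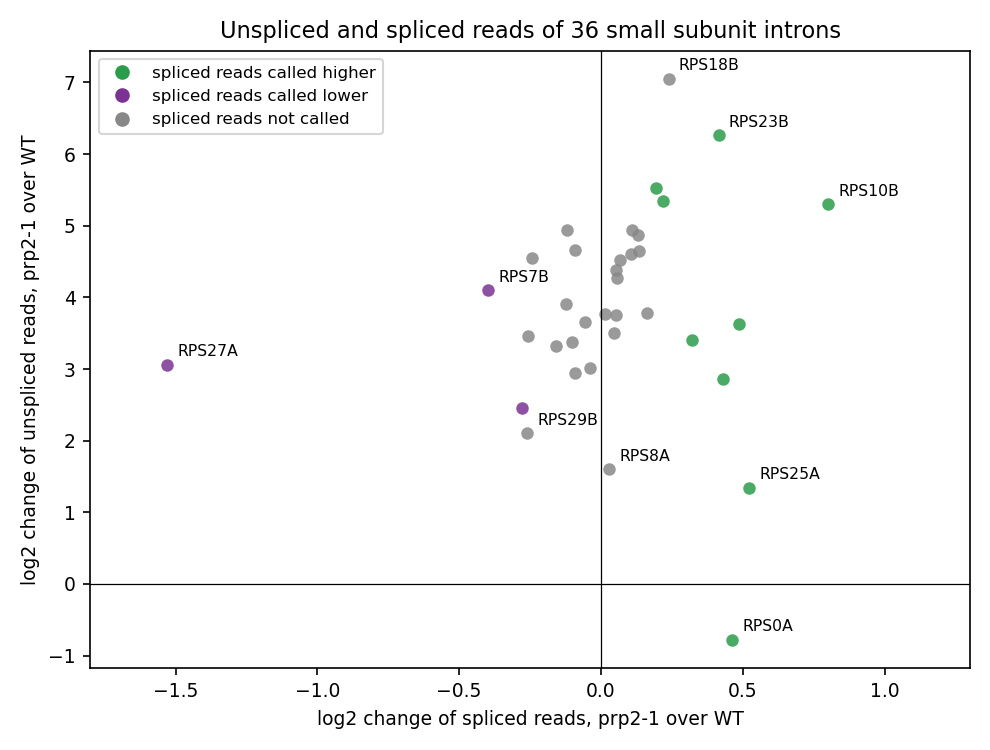
The log2 change of unspliced reads against that of spliced reads for the 36 introns, scaled to all introns of the library, with introns called higher (green) or lower (purple) in spliced reads. Unspliced reads of all but RPS0A lie above 1, while spliced reads of 33 introns changed by under 0.5 in either direction.

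Total reads, spliced and unspliced together, rose in 9 members and fell in 2 (edgeR), where 19.7% of all tested introns rose and 23.7% fell. The 9 that rose in total reads also rose in spliced reads. Among the 5 largest rises were RPS10B (0.81), RPS25A (0.59), RPS7A (0.50) and RPS0A (0.46). The larger fall was in RPS7B (-0.34, adjusted p = 0.0230, edgeR). Both calls of a fall were lost without any single WT library, which left 0 called lower by edgeR, and that of RPS7B also without prp2-1 replicate A (adjusted p = 0.0541, edgeR). Relative to the introns over 98% unspliced in WT, 1 member rose and 2 fell.

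The 2 copies of a pair encode nearly the same protein but differ in much of their introns. Over the 15 pairs with placed introns, coding regions were 84.3% (RPS27) to 99.2% (RPS6) identical and introns 46.9% (RPS27) to 53.6% (RPS30). In the first 50 bases of exon 2 the copies differed at 1 (RPS6) to 13 (RPS7) positions, and in the last 30 bases of the intron at 12 or more. Within these windows the copies differ at fewer bases in the exon than in the intron, and single values of either copy are uncertain where the authors' counting could have split reads between them. The start of exon 2 is shown for RPS18 and RPS27, where copies differed widely in response or in level, with capitals at the bases that differ.
RPS18A, chrIV:1360405-1360454, plus strand: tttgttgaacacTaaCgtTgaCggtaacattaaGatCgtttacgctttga
RPS18B, chrXIII:223331-223380, minus strand: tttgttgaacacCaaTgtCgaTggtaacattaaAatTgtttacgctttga
RPS27A, chrXI:158967-159016, plus strand: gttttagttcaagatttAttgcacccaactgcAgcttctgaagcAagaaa
RPS27B, chrVIII:148067-148116, minus strand: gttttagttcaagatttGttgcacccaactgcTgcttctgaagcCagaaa

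In WT the copies differed in ratio in 8 of 16 pairs, with A higher in 6 and B higher in 2 (limma at a BH adjusted p under 0.05, adjusted over all 45 ribosomal protein gene pairs with 1 tested intron in each copy). In all 45 pairs 66.7% differed, in either direction. The value tested in each library is the log2 ratio of the A copy minus that of the B copy. It was largest in RPS27, at 6.77, 7.45 and 6.19 in WT replicates A, B and C (mean 6.8 ± 0.426 SE). In RPS0 it was 1.63, 3.59 and 2.55, with A the less spliced copy in all 3 libraries. RPS24, by contrast, had the less spliced copy in B, at -3.13, -1.96 and -1.93 (adjusted p = 0.000102, limma). RPS18 had 1.70, 3.15 and 1.10 (adjusted p = 0.0012, limma), but 0.04 in the first of the authors' draws (adjusted p = 0.921, limma). Over all 5 draws RPS18A was 0.0491% and RPS18B 0.0271% unspliced in WT. In the first draw 4 pairs differed. Without WT replicate B, RPS4 and RPS23 lost their calls (adjusted p = 0.0601 and 0.0837, limma). With a pseudocount of 5 in place of 0.5, the WT difference in RPS23 went from 0.78 to 0.074 (adjusted p = 0.681, limma), and that in RPS18 to 1.02 (adjusted p = 0.000805, limma). Among the smallest was RPS6 (0.19 ± 0.395), which did not pass the test.

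The copies differed in their response to prp2-1 in 8 of 16 pairs, and in 57.8% of all 45 pairs. In 7 of the 8 the B copy rose more, and the direction was not counted over all 45 pairs. In RPS0 the A minus B value went from 1.63, 3.59 and 2.55 in WT to -2.10, -2.28 and -2.81 in prp2-1, so that the less spliced copy changed from A to B in every library. RPS0B (YLR048W, chromosome XII, 242322 to 242680) had 5, 21 and 3 unspliced reads in WT and 243, 242 and 318 in prp2-1, with a log2 change of its ratio of 4.62 ± 0.519, against -0.95 in RPS0A. The change in RPS0B was 5.78 without WT replicate B and 4.02 without WT replicate C. The difference in change was -4.99 ± 0.503 (adjusted p = 0.000153, limma), and -4.49 without WT replicate B. The order also turned in RPS18, from 1.70, 3.15 and 1.10 to -1.03, -1.42 and -1.39. RPS18A (YDR450W, chromosome IV, 1359970 to 1360404) rose from 0.0796% ± 0.00574 to 0.998% ± 0.428 while RPS18B went past it, a difference in change of -3.27 ± 0.514 (adjusted p = 0.00106, limma). It was -2.29 with a pseudocount of 5 and -1.99 in the first draw, and passed in both. Within prp2-1, 10 of the 16 pairs differed, with A higher in 3 and B in 7, where 66.7% of all pairs did. RPS0 and RPS18 were the 2 pairs in which opposite copies passed the test in WT and in prp2-1.

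In RPS30 the value was -0.45, -0.11 and -0.13 in WT and -1.96, -2.51 and -2.28 in prp2-1 (difference -2.02 ± 0.295, adjusted p = 0.00106, limma). RPS30A (YLR287C-A, chromosome XII, 712726 to 713155) reached 5.73% ± 1.95 and RPS30B 22% ± 5.34, from 0.718% ± 0.155 and 0.830% ± 0.0853. The introns of this pair are alike in start, length and branch distance. Both start with GTACGT, they are 430 and 411 bases long, and the branch point lies 39 and 40 bases from the end. Their sequences are 53.6% identical, and they differ at 14 of the last 30 bases. The other 4 pairs with the larger rise in B were RPS10 (-1.32 ± 0.292), RPS7 (-1.30 ± 0.284), RPS19 (-1.46 ± 0.419) and RPS23 (-0.96 ± 0.305). RPS19 lost its call without WT replicate A or prp2-1 replicate C (adjusted p = 0.0538 and 0.0693, limma). RPS23 lost it without WT replicate B or prp2-1 replicate B or C (adjusted p = 0.0878, 0.0753 and 0.110, limma) and with the replicate letter as a block (0.0553), and with a pseudocount of 5 the difference in RPS23 was -0.26 (adjusted p = 0.383, limma). RPS10, RPS19 and RPS23 also lost it in the first of the authors' draws (0.869, 0.256 and 0.0581). The smallest differences, in RPS4 (-0.23 ± 0.357) and RPS6 (-0.16 ± 0.558), did not pass. In the first draw RPS4 was at -1.74 and passed (adjusted p = 0.0494, limma).

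**Figure D4:**
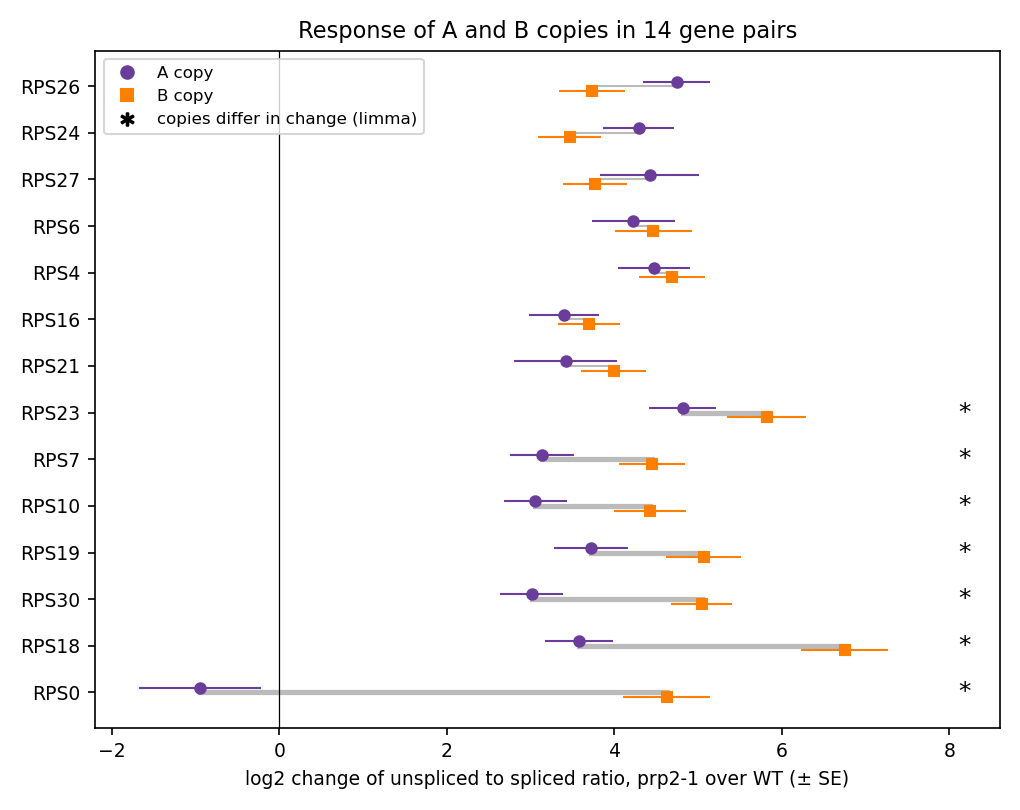
Log2 change in ratio, unspliced over spliced reads (edgeR, bars are SE), of the A copy (circles) and the B copy (squares) in 14 of the 16 gene pairs, sorted by the A minus B difference; asterisks mark the 7 of these pairs whose copies differed in limma. The B copy lies to the right in all 7 marked pairs, with the widest gap in RPS0.

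The share of the A copy in the spliced reads of a pair changed in 8 of 16 pairs, up in 4 and down in 4, where it changed in 40% of all 45 pairs. The share is compared between groups only, not between pairs. Because each copy has its own primer, it is not the share of the copy in the RNA. In RPS7 the A copy held 73.1%, 76.8% and 75.3% of the spliced reads in WT and 84.5%, 84.8% and 85% in prp2-1 (adjusted p = 0.000122, limma). In RPS10 the share fell from 57.3%, 57.0% and 58.4% to 48.3%, 50.5% and 49.2% (adjusted p = 0.00149, limma), and in RPS23 from 68.3% ± 0.765 to 63.5% ± 0.935. RPS27A held 1.21% ± 0.323 of its pair in WT and 0.404% ± 0.0511 in prp2-1. The shares of RPS0 (11.8% ± 0.946 to 14.4% ± 0.19) and RPS19 (15.4% ± 0.778 to 13% ± 0.867) also changed. The call in RPS0 was lost on leaving out WT replicate B (adjusted p = 0.0558, limma) or C (0.0725), and that in RPS19 on leaving out WT replicate B (0.137), WT replicate C (0.0970) or prp2-1 replicate C (0.122), with the replicate block (0.0534) and in the draws (0.0633). In 6 of the 8 pairs the change of ratio also differed between the copies, where it differed in 57.8% of all 45 pairs. How often both passed together was not counted over all 45 pairs. In these 6, the copy that gained spliced share had the smaller rise of ratio in RPS0 and RPS7. It had the larger rise in the other 4, among them RPS10, RPS19 and RPS23.

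**Figure D5:**
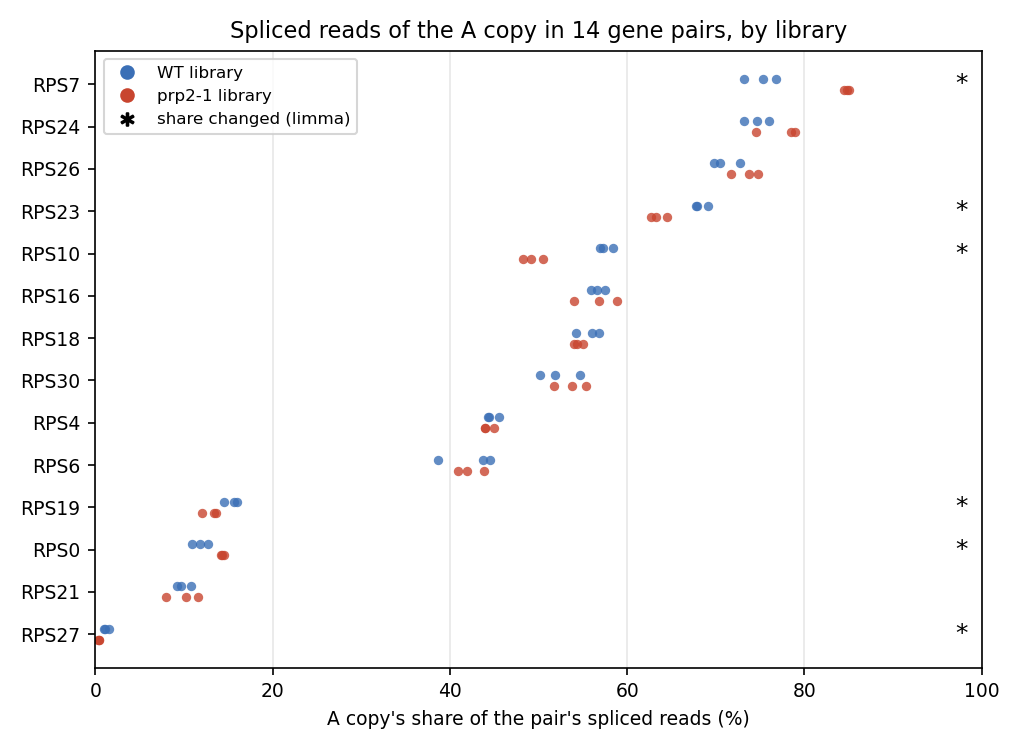
Share of the A copy in the spliced reads of each of 14 of the 16 gene pairs (percent), 1 point per library, WT in blue and prp2-1 in red; asterisks mark the 6 of these pairs whose share changed in limma. RPS7 moved up from a mean of 75.1% to 84.8% and RPS10 down from 57.6% to 49.3%, with no overlap between the groups.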

How the data were processed

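The authors deposited raw read counts per intron and library, 1 count of spliced and 1 of unspliced reads, without normalization. Per the submitters' processing notes, fastp 0.19.5, HISAT2 2.2.1, SAMtools and build R64 were used; the rule that sorted reads into spliced and unspliced is not stated there. Input was 10 µg of RNA per library, per the labels' protocols. Sequences and intron positions come from the RefSeq R64 reference.

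The members, lists and tests were chosen with earlier results of these data known. Testing needed a mean of at least 10 reads of both kinds per library, which 274 introns met. The ratio was tested in edgeR 4.0.16 (R 4.3.3), fitting library, read type and the genotype effect on read type; its SE is the log2 change over the root of F. Total, unspliced and spliced reads were tested on TMM-scaled library totals. Pairs were compared in limma 3.58.1, adding 0.5 to each count before the log2 ratio. All p-values were BH adjusted over all introns or all 45 pairs. DESeq2 1.42.0 and the first of the authors' draws were alternatives, the draw for levels and pairs added after seeing the data. The tests were tested on simulated data. The simulated pairs had more unspliced reads than many members had in WT, so they do not speak to pairs with few such reads. Named are the 5 largest and 5 smallest changes of ratio, uncalled members, members called in spliced or total reads (the 5 largest where over 8), the 4 largest and 2 smallest pair differences, extremes of percent and unpaired introns. Other named members, and the other called pairs, were chosen after their values were seen. Some members that the rule names are not reported here, but every count and median includes them. The limit given for RPS13 covers counting error only, while each SD and SE also holds the spread between libraries.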

Additional observations from a re-analysis of the deposited data

How the results depend on the processing

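The count of members with a higher ratio was 35 with DESeq2, limma, no filter, a minimum of 50 reads, the replicate block and the authors' draws, and 34 to 35 with 1 library left out. Of the 36 members, 34 kept direction and call under every alternative run, the exceptions being RPS0A and RPS25A. The log2 change in RPS0A ran from -1.60 to 1.38 with 1 library left out and was 1.58 in the draws. Changes that kept their call but moved by over 1.5 times in the draws included RPS13 (1.94), RPS10B (3.20), RPS18A (4.24), RPS0B (5.80) and RPS30B (4.45). Members lower in total reads numbered 1 with DESeq2 size factors and 1 in the draws, and 0 to 2 with 1 library left out. Relative to the introns over 98% unspliced in WT, 1 member was higher in total and 1 in spliced reads. Members lower in spliced reads were 5 there, 5 with library totals alone and 5 with DESeq2. Members lower in unspliced reads were 0 to 1 with 1 library left out.

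Pairs that differed in WT numbered 4 in the first draw. Values that changed sign did not pass the test in the full table except RPS4 in WT, which was 0.45 in the first draw. Over all 5 draws RPS4A was 0.0290% and RPS4B 0.0397% unspliced in WT, with B higher as in the full table. With 1 library left out, the WT difference ran from -0.44 to 0.65 in RPS6. The difference in change ran from -0.62 to 0.47 in RPS6 and from -0.52 to 0.0069 in RPS4. In the first draw it was -1.74 in RPS4, which then passed, and with a pseudocount of 5 it was -0.26 in RPS23, which then did not. The change of A over B spliced reads ran from -0.11 to 0.062 in RPS6 and from -0.070 to 0.072 in RPS16, and was 0.045 and 0.0063 in the draws. The cause was not tested.

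Library letters were not shown to pair the samples: deviations of the ratio from group means correlated at 0.09 for A, 0.20 for B and 0.27 for C, each library best with its own letter. With the replicate block, 11 members were higher in total reads, 11 higher and 4 lower in spliced reads, and 10, 8 and 7 pairs differed in WT, in change and in spliced share. Members with few unspliced reads in WT, down to 0 in RPS13, limit the precision of their changes.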
